A study of Mus musculus with 6 samples.

Results

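Followed here were the matrix metalloproteinase (Mmp), disintegrin metalloproteinase (Adam and Adamts), Adamts-like (Adamtsl) and tissue inhibitor of metalloproteinases (Timp) genes. The mouse cells were labelled primary fibroblasts and were treated or not with the chemokine CXCL3 over 48 h. The families were chosen with earlier results of these data known. Their genes were taken by symbol: every protein-coding row of the expression table whose symbol begins with Mmp, Adam, Adamts, Adamtsl or Timp followed by a digit. This gave 83 of 51912 rows. Of these, 41 reached a TPM (transcript level per length, scaled to a fixed sum) of 1 in at least 3 of the 6 libraries and are called detected, namely 15 of 22 Mmp, 3 of 4 Timp, 9 of 33 Adam, 11 of 19 Adamts and 3 of 5 Adamtsl genes. The mice were 6 weeks old, and there were 3 control and 3 CXCL3 libraries. The labels name no strain, no organ of origin and no dose of CXCL3, nor do they say whether the libraries of a group came from separate cultures or animals. The p-values therefore measure only the spread between these libraries, which may be technical.

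MMPs are zinc-dependent proteases, secreted or held at the cell surface, that cut collagens, proteoglycans and other matrix proteins as well as chemokines and cytokines. ADAM proteases sit in the membrane and release the outer parts of growth factors, cytokines and receptors, whereas ADAMTS proteases are secreted and cut proteoglycans or trim procollagens. TIMPs bind the active site of these proteases and inhibit them. Fibroblasts are known as a main source of Mmp2, Mmp14 and the TIMPs in connective tissue, and macrophages of Mmp12.

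Many Mmp genes lie side by side. On chromosome 9 (GRCm38, 7272514 to 7699585, 427 kb) stood 10 Mmp genes, 9 of them annotated as protein coding and 6 of them detected. A site for AP-1, the Fos and Jun dimer known to bind promoters of several Mmp genes, was searched in the 300 bases from 250 before to 50 after each gene start (RefSeq, GRCm38.p6), as TGAGTCA on either strand, so that TGACTCA was counted too. Of all 32851 promoters, 5.20% held the site, as did the promoters of 5.95% of 27025 genes. A promoter was matched for 27 of the 41 detected members, and 5 of the 27 held the site: Mmp13, Mmp3, Mmp10, Mmp12 and Adam19. In the gene cluster on chromosome 9, 7 of the 10 genes held it and Mmp8, Mmp20 and Mmp27 did not. The 5 windows are shown because 4 of them belong to neighbouring genes whose levels and differences between the groups are set side by side below. Each runs 5′ to 3′ on the plus strand with the site in capitals and 25 bases to either side, at chr9:7272454-7272510 (35 bases before the start of Mmp13), chr9:7445751-7445807 (46 before Mmp3), chr9:7502254-7502310 (63 before Mmp10), chr9:7347305-7347361 (44 before Mmp12) and chr11:46055828-46055884 (131 before Adam19).
Mmp13: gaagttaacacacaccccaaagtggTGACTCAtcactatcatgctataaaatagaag
Mmp3: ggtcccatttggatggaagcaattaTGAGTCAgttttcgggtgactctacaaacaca
Mmp10: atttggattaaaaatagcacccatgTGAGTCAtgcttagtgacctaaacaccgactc
Mmp12: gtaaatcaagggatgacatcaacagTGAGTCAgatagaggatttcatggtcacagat
Adam19: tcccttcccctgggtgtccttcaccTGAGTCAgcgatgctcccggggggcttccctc

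The site letters were TGAGTCA in 4 of the windows and TGACTCA in that of Mmp13. A match describes these letters and shows no binding.

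TPM keeps no sequencing depth, so precision was judged from the spread between libraries. The columns summed to between 984281 and 986705 TPM and had between 19493 and 20270 genes above 0. Among the controls, replicate 1 stood apart from replicates 2 and 3: deviations from a gene's mean correlated with the length of its longest transcript with a Spearman rho of 0.45 in control 1 and of -0.50 and -0.48 in controls 2 and 3, against 0.20 to 0.40 in the CXCL3 libraries (across genes, which are not independent). Results are therefore also given without control 1. In that setting the controls left and the CXCL3 libraries lie on opposite sides of this trend, so treatment and trend cannot be told apart. Fibroblast markers were present, with 8 of 10 detected and a summed level of 3129 to 4176 TPM in the controls and 3226 to 3325 with CXCL3, while Lum and Fap were below the filter. All 15 macrophage markers were detected, led by Lyz2, with sums of 16111 to 19176 and 15776 to 15870 TPM. The macrophage sum was above the fibroblast sum in every library, but this order rests on Lyz2 alone, at 13114.62 to 16165.54 TPM. Without Lyz2 the macrophage sum lay below the fibroblast sum in every library. The label fibroblast alone thus does not settle which cells were present, and their make-up was not tested. Of the neutrophil markers 2 of 8 were detected, S100a8 (529.13 to 668.66 TPM) and Camp (2.48 to 3.83 TPM). S100a9 was at no more than 0.71 TPM and Ngp was listed at 0. Cxcr2, the known receptor of CXCL3, was at 0.02 to 0.12 TPM. None of the T or B cell or epithelial markers was detected. Detected markers of other cell types were Wt1 (mesothelial, 22.11 to 33.34 TPM), Cela1 (pancreatic acinar, 23.44 to 27.28 TPM), Des and Mcam (smooth muscle or pericyte, up to 14.09 and 3.06 TPM) and Vwf and Kdr (endothelial, up to 4.45 and 1.32 TPM).

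In limma none of the 41 detected members passed an adjusted p of 0.05, which 0.160% of all 13139 genes tested did. The smallest adjusted p among the members was 0.183, for Mmp13. At an unadjusted p under 0.05 there were 6 members against 11.6% of all genes, 2 of them higher with CXCL3 (Mmp13 and Adam8; 5.93% of all genes) and 4 lower (Timp1, Mmp14, Mmp3 and Mmp23; 5.65% of all genes). The 3 libraries of a group lay wholly apart from the other 3 in 8 members. These were higher with CXCL3 in Mmp13, Mmp9, Timp2 and Adam23 (7.92% of all genes) and lower in Timp1, Mmp14, Mmp3 and Mmp23 (9.31% of all genes). In such bulk RNA, fewer cells that express a gene and less of its RNA per cell cannot be told apart.

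Levels spanned a wide range. Timp1 ranked 14th of all genes tested by mean level. After it came Mmp14, Mmp12, Timp2, Adam8, Timp3, Mmp9, Mmp2, Adam15 and Adam9. Neighbours in this order were not all distinct: the control libraries of Adam8 (211.41 to 306.35 TPM), Timp3 (227.51 to 325.27 TPM) and Mmp9 (190.99 to 214.18 TPM) form a chain in which Adam8 overlaps both of the others.

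**Figure D1:**
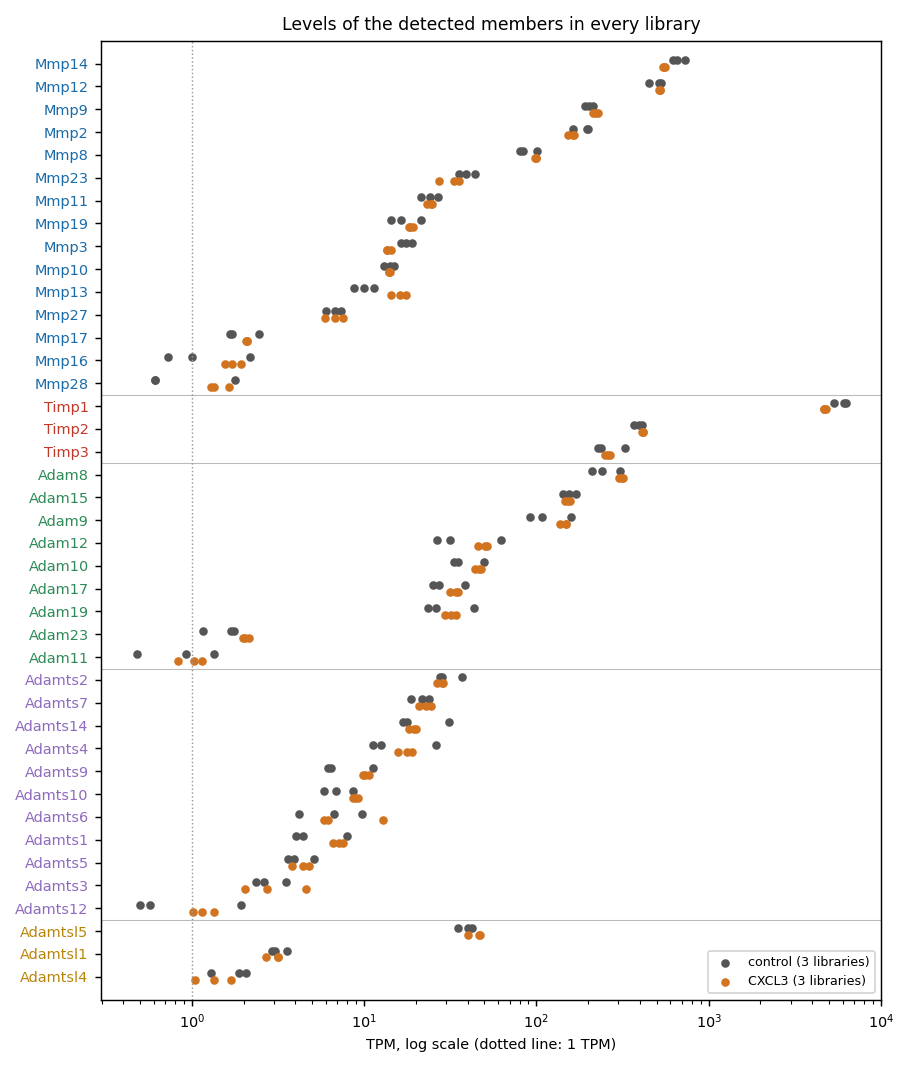
TPM (log scale) of the 41 detected members in each of the 6 libraries, by family and in order of mean level, with control libraries in grey and CXCL3 libraries in orange. Timp1 lies highest, and the members just above the filter, such as Adam11, Adamts12, Mmp28 and Mmp16, lie at the dotted line of 1 TPM.

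The TIMPs made up most of the summed level. Timp1, the soluble inhibitor of most secreted MMPs, was at 5333.61, 6251.93 and 6136.00 TPM in controls 1 to 3 and at 4669.26, 4702.20 and 4788.56 TPM with CXCL3. Every CXCL3 library lay below every control, and control 1 was the lowest of the controls. The means were 5907 ± 500 and 4720 ± 61.6 TPM (SD, n = 3 each), and the log2 fold change was -0.32 ± 0.08 (SE) with an adjusted p of 0.245 in limma. Without control 1 it was -0.39 with an adjusted p of 0.00485 in limma, a setting in which 32.4% of all genes passed 0.05. With control 1 as the only control it was -0.18, a value given with no test.

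Timp2, which also takes part in the activation of pro-MMP2 by Mmp14, was at 409.34, 370.68 and 394.73 TPM in the controls and at 410.76, 415.08 and 416.04 TPM with CXCL3. The groups did not overlap, but control 1 lay close to the lowest CXCL3 library, and the log2 fold change was 0.08 ± 0.06 with an adjusted p of 0.541. With the trend along transcript length and GC content taken out of each library it was -0.02. Timp3, the inhibitor bound to the matrix, was at 263 ± 54.1 TPM in the controls and 260 ± 9.15 TPM with CXCL3, with control 1 above every other library and a log2 fold change of 0.00 ± 0.13. Timp4 was listed at no more than 0.04 TPM.

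Summed over the 4 genes, TIMP transcripts were at 6562 ± 429 TPM in the controls and 5394 ± 54.8 TPM with CXCL3, of which Timp1 gave 88.9%. Without Timp1 the sums were 655 ± 71.3 and 674 ± 6.87 TPM. The summed TIMP level over the summed MMP level was 3.28, 3.95 and 3.86 in controls 1 to 3 and 3.13, 3.21 and 3.28 with CXCL3. Control 1 lay level with the highest CXCL3 library at this rounding, and controls 2 and 3 lay above all of them.

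**Figure D2:**
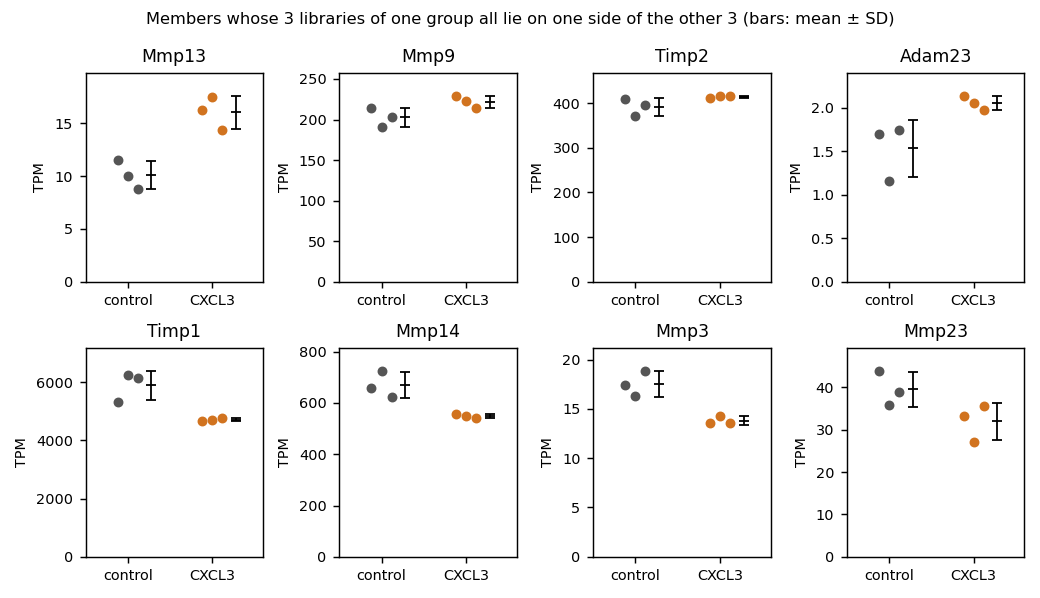
TPM in every library of the 8 members whose groups did not overlap, with the mean and SD of 3 libraries beside the points and axes from 0. The gap between the groups is widest relative to the level in Mmp13 and narrow in Timp2, Mmp9 and Mmp23.

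The collagenases start the breakdown of fibrillar collagen. Mmp13 (collagenase 3) was at 11.49, 10.01 and 8.79 TPM in the controls and at 16.21, 17.52 and 14.37 TPM with CXCL3. All 3 CXCL3 libraries lay above all 3 controls, with a log2 fold change of 0.62 ± 0.14, the furthest from 0 among the members tested, and an adjusted p of 0.183. It was 0.58 (adjusted p 0.0834) with the length and GC trend removed, 0.71 (adjusted p 0.00721) without control 1, and 0.44 with control 1 as the only control, a value given with no test. Mmp8 (collagenase 2) was at 88.3 ± 10.9 TPM in the controls and 99.0 ± 1.01 TPM with CXCL3, with control 1 above all CXCL3 libraries. Mmp1b stayed at or below 0.28 TPM.

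The gelatinases cut denatured collagen and basement membrane collagen. Mmp9 (gelatinase B) was at 214.18, 190.99 and 203.53 TPM in the controls and at 229.36, 222.36 and 214.33 TPM with CXCL3. The groups lay apart only by the small step from control 1 to the third CXCL3 library, and the log2 fold change was 0.13 ± 0.07 with an adjusted p of 0.467. Mmp2 (gelatinase A), the substrate of Mmp14 in pro-MMP2 activation, had the opposite sign at -0.21 ± 0.09 (186 ± 20.2 against 160 ± 6.54 TPM, adjusted p 0.429), and its groups overlapped at control 2.

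Among the stromelysins, which cut proteoglycans and other matrix proteins and activate other pro-MMPs, Mmp3 was at 17.42, 16.32 and 18.90 TPM in the controls and at 13.55, 14.33 and 13.53 TPM with CXCL3. Every CXCL3 library was below every control, the log2 fold change was -0.32 ± 0.10, and the adjusted p was 0.340, or 0.0354 without control 1. Mmp10, its close paralog on the same chromosome, was at 15.02, 13.01 and 14.12 TPM in the controls and 14.04, 14.19 and 13.99 TPM with CXCL3, all within the range of the controls, with a log2 fold change of 0.00 ± 0.10. Reads that these paralogs share depend on how they were divided between them. Mmp11 (stromelysin 3) was at 24.2 ± 2.80 and 24.3 ± 0.843 TPM.

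The 4 neighbouring genes of chromosome 9 whose promoter windows are printed above thus did not share a direction. The log2 fold change was 0.62 ± 0.14 (SE) in Mmp13, -0.32 ± 0.10 in Mmp3, 0.00 ± 0.10 in Mmp10 and 0.07 ± 0.07 in Mmp12. Any part of the AP-1 site in these values was not tested. Among the other genes of the stretch Mmp8 had 0.17 and Mmp27 0.02, while Mmp20 and Mmp7 (matrilysin) were listed at 0 in all libraries.

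Mmp12 (macrophage metalloelastase) was the second most abundant MMP at 498 ± 41.2 TPM in the controls and 520 ± 2.95 TPM with CXCL3, and its groups overlapped. Mmp12, Mmp8, Mmp9 and Adam8, genes known from myeloid cells, had log2 fold changes of 0.07, 0.17, 0.13 and 0.32, and none passed. Beside them stand the macrophage markers given above, none of which was at 0. Of the 15 markers, 6 were lower with CXCL3 in every library (9.31% of all genes) and 1 was higher (7.92% of all genes). C1qa alone of the macrophage markers passed in limma (289 ± 38.6 to 167 ± 5.46 TPM, adjusted p 0.0493). Of the 8 detected fibroblast markers, 2 were lower with CXCL3 in every library and 1 was higher, beside the same shares of all genes. Col3a1 alone of the fibroblast markers passed in limma, lower with CXCL3 (adjusted p 0.0293). The part of macrophage content in the levels of these members was not tested.

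Of the membrane-anchored MMPs, Mmp14 (MT1-MMP), which activates pro-MMP2 and cuts collagen around the cell, was the most abundant MMP. It was at 659.89, 726.69 and 624.86 TPM in the controls and at 557.45, 548.41 and 542.81 TPM with CXCL3. Every CXCL3 library lay below every control, with means of 670 ± 51.7 and 550 ± 7.39 TPM and a log2 fold change of -0.28 ± 0.07 (adjusted p 0.248). It was -0.29 (adjusted p 0.0226) without control 1, and the value with control 1 as the only control was -0.26. Mmp16 (1.30 ± 0.764 and 1.73 ± 0.186 TPM) and Mmp17 (1.95 ± 0.445 and 2.08 ± 0.0115 TPM) stood near the filter, with control 1 highest in both, and Mmp15, Mmp24 and Mmp25 were below it.

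Mmp23, a small MMP that lacks the hemopexin domain of most others, was at 43.98, 35.76 and 38.91 TPM in the controls and at 33.23, 27.11 and 35.50 TPM with CXCL3. The third CXCL3 library lay just under control 2, and the log2 fold change was -0.30 ± 0.13 with an adjusted p of 0.426. Mmp19 (17.4 ± 3.61 and 18.6 ± 0.466 TPM), Mmp27 (6.68 ± 0.668 and 6.77 ± 0.805 TPM) and Mmp28 (1.00 ± 0.675 and 1.43 ± 0.187 TPM) had overlapping groups. Mmp20, known from enamel, and Mmp21 were listed at 0. Summed over all 22 genes, MMP transcripts were at 1780 ± 63.5 and 1682 ± 22.8 TPM, and without Mmp14 at 1109 ± 95.0 and 1132 ± 15.4 TPM.

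**Figure D3:**
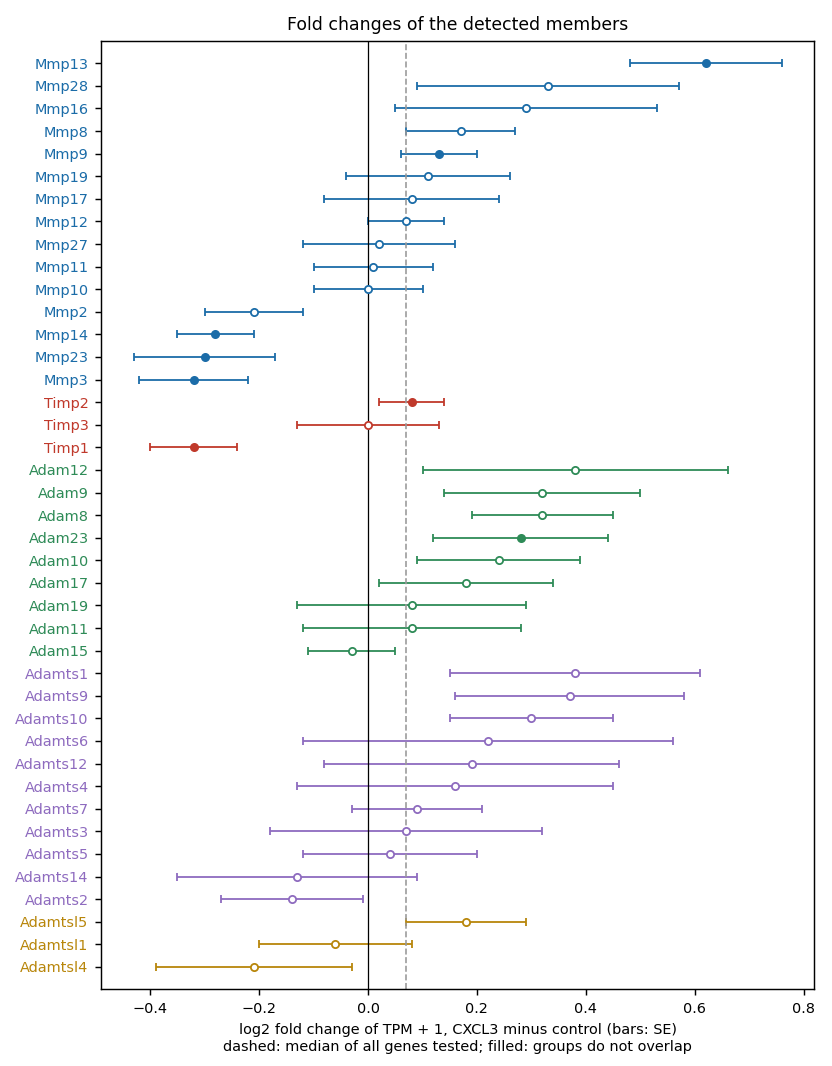
Log2 fold change of TPM + 1 (CXCL3 minus control) with its SE from limma for the 41 detected members, by family. Filled points are the 8 members whose groups did not overlap, and the dashed line is the median of all genes tested, 0.07. Mmp13 lies furthest right, and Timp1, Mmp3, Mmp23 and Mmp14 lie furthest left.

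Among the ADAMs with protease activity, Adam8, known from myeloid cells and as a sheddase of adhesion molecules, was the most abundant. It was at 306.35, 211.41 and 241.89 TPM in the controls and at 319.14, 315.66 and 301.64 TPM with CXCL3. Controls 2 and 3 lay below all CXCL3 libraries, whereas control 1 lay within their range, and the log2 fold change was 0.32 ± 0.13 (adjusted p 0.420). It was 0.46 (adjusted p 0.00658) without control 1, and the value with control 1 as the only control was 0.03.

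Most other ADAMs likewise lay higher in the CXCL3 libraries than in controls 2 and 3. Adam9 was at 119 ± 34.5 TPM in the controls and 145 ± 6.28 TPM with CXCL3. Adam10, the main sheddase of Notch receptors and several cadherins, was at 49.86, 33.44 and 35.26 TPM in the controls and 46.1 ± 1.86 TPM with CXCL3. Adam17, the sheddase of TNF and of several EGF receptor ligands, was at 30.2 ± 7.08 and 33.8 ± 1.86 TPM. Adam12, known from activated fibroblasts and muscle, was at 40.1 ± 19.3 and 49.3 ± 3.14 TPM and Adam19 at 31.1 ± 11.0 and 31.8 ± 2.45 TPM. In each of these 5 genes control 1 was the highest of all 6 libraries.

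Adam12 reached 62.22 TPM in control 1 against 26.66 and 31.56 TPM in controls 2 and 3. Adam15 (156 ± 13.4 and 153 ± 5.50 TPM) was the exception, with control 2 the highest and a log2 fold change of -0.03. Adam23, an ADAM without protease activity known from nervous tissue, was at 1.70, 1.16 and 1.75 TPM in the controls and at 2.14, 2.05 and 1.98 TPM with CXCL3. Its groups did not overlap, with a log2 fold change of 0.28 ± 0.16 and an adjusted p of 0.478, at a level close to the filter. Adam11, of the same kind, was at 0.920 ± 0.435 and 1.00 ± 0.162 TPM.

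Among the ADAMTS proteases, Adamts2, the procollagen N-proteinase of fibrillar collagens, was the most abundant, at 37.08, 27.61 and 28.44 TPM in the controls and at 28.78, 28.47 and 26.58 TPM with CXCL3. Control 1 lay above the other 5 libraries, which lay close together, and the log2 fold change was -0.14 ± 0.13 (adjusted p 0.606). Removing the length and GC trend gave -0.38 (adjusted p 0.0834), and leaving out control 1 gave -0.00 (adjusted p 0.964). The related Adamts14 had 21.9 ± 8.06 and 19.2 ± 0.957 TPM and Adamts3 2.84 ± 0.616 and 3.12 ± 1.33 TPM. The proteoglycan-cleaving members Adamts1 (5.48 ± 2.19 and 7.13 ± 0.470 TPM), Adamts4 (16.7 ± 8.35 and 17.5 ± 1.58 TPM), Adamts5 (4.21 ± 0.788 and 4.35 ± 0.493 TPM) and Adamts9 (7.98 ± 2.89 and 10.2 ± 0.442 TPM) all had control 1 as the highest of the 6 libraries. Adamts1 and Adamts9 had log2 fold changes of 0.38 ± 0.23 and 0.37 ± 0.21 (adjusted p 0.489 and 0.479). Without control 1 these were 0.64 and 0.62 (adjusted p 0.00856 and 0.00635), and with control 1 as the only control they were -0.15 and -0.13.

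The other detected ADAMTS genes were Adamts6 (6.89 ± 2.76 and 8.34 ± 4.01 TPM), Adamts7 (21.4 ± 2.47 and 22.7 ± 1.81 TPM), Adamts10 (7.12 ± 1.40 and 8.90 ± 0.325 TPM) and Adamts12 (0.997 ± 0.800 and 1.17 ± 0.161 TPM). Adamts6 was the most variable of them, with its highest value, 12.96 TPM, in CXCL3 replicate 3 and 9.73 TPM in control 3. Summed, the 19 ADAMTS genes were at 127 ± 31.7 TPM in the controls and 131 ± 1.48 TPM with CXCL3.

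The ADAMTS-like proteins share the ancillary domains of ADAMTS proteases and lack the protease domain. Adamtsl5, the most abundant, was at 42.44, 35.18 and 39.95 TPM in the controls and at 39.97, 46.87 and 46.46 TPM with CXCL3. CXCL3 replicate 1 lay within the range of the controls, and the log2 fold change was 0.18 ± 0.11 (adjusted p 0.484). Adamtsl1 (3.18 ± 0.359 and 3.01 ± 0.280 TPM) and Adamtsl4 (1.75 ± 0.399 and 1.37 ± 0.325 TPM) had overlapping groups.

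Of the 42 members below the filter, 14 were listed at 0 in all libraries. None of the 21 ADAMs of the testis and the like passed the filter, and their summed level was between 1.06 and 2.47 TPM. The member that came nearest without passing was Adam33, at 1.82 TPM in control 1 and at 0.17 to 0.73 TPM in the other libraries. Just inside lay Adam11, with 3 libraries at 1 TPM or more, and Adamts12 and Mmp28, with 4 each.

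Seen over the 41 detected members, 31 had a positive and 10 a negative log2 fold change, which is 75.6% positive against 62.3% of all genes. Their median was 0.08 against 0.07 over all genes. By family the medians were 0.07 for MMP, 0.00 for TIMP, 0.24 for ADAM, 0.16 for ADAMTS and -0.06 for ADAMTSL genes. With median-of-ratios scaling or quantile normalization, which bring the median of all genes to 0.00, there were 25 positive and 16 negative. With the length and GC trend removed there were 19 positive and 22 negative.

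Control 1 was the highest of the controls in 33 of 41 members (80.5%) and in 62.8% of all genes. In 20 members (48.8%; 36.6% of all genes) all CXCL3 libraries lay above controls 2 and 3 but not all above control 1. The controls spread more than the CXCL3 libraries in 37 members (90.2%; 80.3% of all genes), with a median SD of log2(TPM + 1) of 0.218 and 0.0628.

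**Figure D4:**
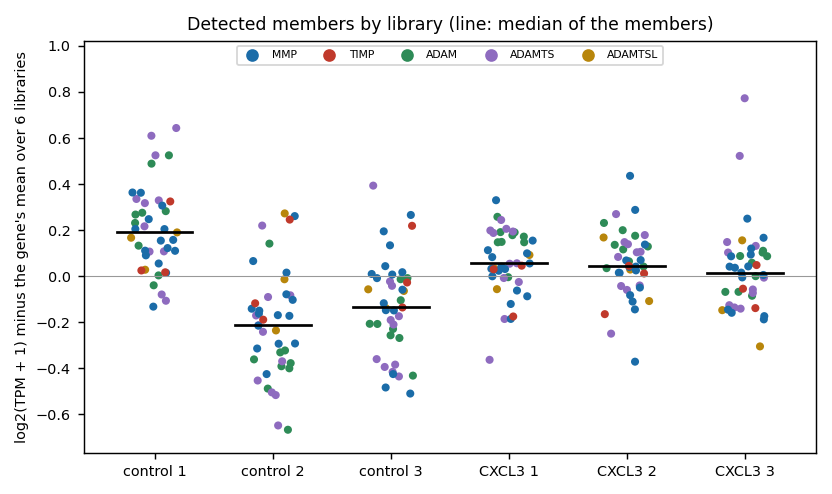
Deviation of log2(TPM + 1) from the gene's mean over 6 libraries for each detected member, by library, coloured by family, with the median of the members as a line. The medians were 0.19, -0.21 and -0.14 in controls 1 to 3 and 0.05, 0.04 and 0.02 with CXCL3, so that the CXCL3 libraries lie between control 1 and the other two controls.

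Leaving out control 1 therefore changed the calls: 17 members passed, 14 higher and 3 lower with CXCL3, when 32.4% of all genes passed too. The 3 lower were Timp1, Mmp14 and Mmp3. The 14 higher were Mmp8, Mmp13, Mmp16, Mmp28, Adam8, Adam9, Adam10, Adam12, Adam17, Adam19, Adamts1, Adamts4, Adamts9 and Adamts10. Their log2 fold changes without control 1 ran from 0.27 in Mmp8 to 0.74 in Adam12. Those of Adam9, Adam10, Adam17 and Adam19 were then 0.54, 0.41, 0.35 and 0.34, and those of Adamts4, Adamts10, Mmp16 and Mmp28 were 0.52, 0.43, 0.55 and 0.59. The controls left in this setting differ from the CXCL3 libraries along transcript length, so these calls cannot be told apart from that trend. With the trend removed and all libraries kept, Adam12 had 0.14, Adamts9 0.12, Adamts4 0.00 and Adam19 -0.14. Mmp13, Timp1, Mmp14 and Mmp3 then had 0.58, -0.24, -0.36 and -0.29. When limma weighted the libraries by their estimated precision, with control 1 given the lowest weight, 7 members passed (11.0% of all genes): Mmp14 and Timp1 lower and Mmp13, Adam8, Adam9, Adam12 and Adamts9 higher. With control 1 kept and controls 2 and 3 left out, 9 had a positive and 32 a negative log2 fold change. With that lone control, limma takes the spread from the CXCL3 libraries alone and assumes that the control varies like them, so no call is read from it. Which controls show the untreated state was not tested.

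Longer members tended to have more positive differences. Across the 41 members the Spearman rho between log2 fold change and longest transcript was 0.32, against 0.45 across 13114 genes, and -0.07 after the trend was removed. The median longest transcript was 4121 bases in the members and 3213 bases in all genes. Timp1 (883 bases), Mmp23 (1434 bases) and Mmp3 (1801 bases) were among the shortest members, and their log2 fold changes were -0.24, -0.27 and -0.29 with the trend removed. Mmp14 then had -0.36, Mmp2 -0.29 and Adam8 0.21, with adjusted p of 0.194, 0.162 and 0.221. The smallest adjusted p among the members was then 0.0834, shared by Mmp13 (0.58) and Adamts2 (-0.38).

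**Figure D5:**
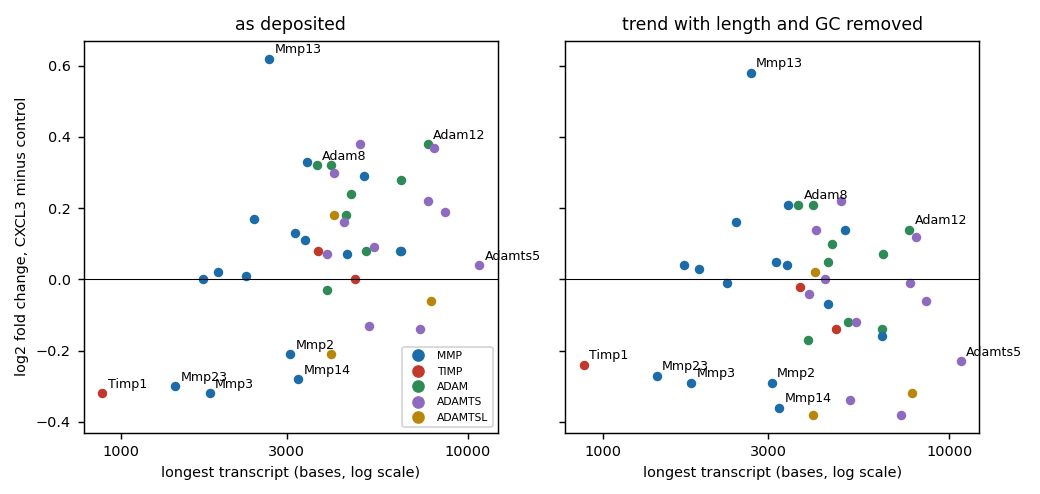
Log2 fold change (CXCL3 minus control) of each detected member against the length of its longest transcript (log scale), as deposited on the left and with each library's trend along length and GC content removed on the right, coloured by family. Mmp13 stays highest on both sides at 0.62 and 0.58, and Adamts5, the longest member, goes from 0.04 to -0.23.

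Genes that act with these families were counted from lists. Among genes of activation and binding 15 of 21 were detected and 0 passed in limma. Bsg (basigin), an inducer of MMPs at the cell surface, was at 1137 ± 40.5 TPM in the controls and 963 ± 23.5 TPM with CXCL3, and Cd63, a tetraspanin that binds Timp1, at 1839 ± 174 and 1560 ± 7.56 TPM. In both genes every CXCL3 library lay below every control, as for Timp1, with adjusted p of 0.245 and 0.360. Pcsk6, a proprotein convertase, and Reck, an inhibitor of MMPs at the membrane, lay higher in every CXCL3 library (1.11 ± 0.167 against 2.01 ± 0.177 and 2.99 ± 0.889 against 4.24 ± 0.281 TPM, adjusted p 0.296 and 0.435). For Reck the groups lay apart only by the small step from control 1 (4.02 TPM) to CXCL3 replicate 3 (4.05 TPM).

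Of the genes of ADAM maturation and trafficking 11 of 14 were detected and of the shed substrates 22 of 31, and 0 passed in either. Sh3pxd2b, an adaptor of podosomes, was at 25.8 ± 11.1 and 34.5 ± 2.13 TPM, and Pdia6, a disulfide isomerase known to act on Adam17, at 135 ± 3.09 and 126 ± 2.54 TPM (adjusted p 0.464 and 0.495). Among the substrates Cxcl16, a membrane chemokine, was at 168 ± 3.96 TPM in the controls and 131 ± 4.73 TPM with CXCL3 (adjusted p 0.120). Ereg (epiregulin), a ligand of the EGF receptor released by Adam17, was at 66.2 ± 9.77 and 88.7 ± 3.46 TPM (adjusted p 0.263). The groups of both did not overlap.

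Among the matrix substrates 16 of 24 were detected, and 1 passed: Col3a1, the chain of collagen III, fell from 407 ± 56.5 to 196 ± 7.91 TPM, with a log2 fold change of -1.05 ± 0.11 and an adjusted p of 0.0293. Spp1 (osteopontin), a substrate of Mmp3, Mmp9 and Mmp12, was at 3760 ± 178 and 4537 ± 52.2 TPM (adjusted p 0.232). Of the astacin proteases and their enhancers 3 of 7 were detected and 0 passed, with Pcolce, the enhancer of procollagen C-proteinase, at 48.2 ± 2.85 and 33.5 ± 2.45 TPM (adjusted p 0.125). All 7 AP-1 genes were detected and 0 passed. Fosl1 was at 57.9 ± 5.34 and 66.3 ± 2.25 TPM (adjusted p 0.437). Fosl2 was at 88.76, 50.46 and 54.53 TPM in the controls, with control 1 again above the CXCL3 libraries (83.0 ± 4.15 TPM, adjusted p 0.457).

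Of the detected members 20 of 41 overlap another annotated gene, 8 of them one with a mean of at least 1 TPM. Among them are Timp1 (Syn1, 26.8 TPM), Timp2 (Cep295nl, 2.49 TPM), Adam17 (Iah1, 105 TPM), Adamts7 (Tbc1d2b, 19.4 TPM), Mmp11 (Chchd10, 77.3 TPM), Mmp19 (Tmem198b) and Mmp28 (1700020L24Rik, 2.16 TPM). Of the overlapping genes named, all but Cep295nl lie on the opposite strand. No source used here says whether counting used strand, so reads of these pairs may not have been separated.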

How the data were processed

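The authors deposited 1 table of TPM per gene with 1 column for each of the 6 libraries. The submitters' processing notes name fastp, HISAT, RSEM and the build GRCm38.p5, without versions. Annotation and use of strand: not given in the sources used here. Symbols, positions and transcript lengths came from GENCODE M21, and promoters from RefSeq (GRCm38.p6). Genes with at least 1 TPM in at least 3 libraries (13139) entered a two-sided comparison of CXCL3 minus control in limma (version 3.58.1, R 4.3.3; lmFit, eBayes with trend) on log2 of TPM plus 1, adjusted over these genes by Benjamini-Hochberg, with a threshold of 0.05. This scale understates the change of low genes. Fold changes are log2 values computed here from the deposited TPM. The smallest p an exact permutation test could reach with 3 libraries a side is 0.1. The fit was tested on simulated data drawn with the same spread in both groups and independently between genes. The real controls spread more than the CXCL3 libraries and differ along transcript length, so the simulation does not bear on those features. Members and lists were chosen with earlier results of these data known. Every detected member is named, with all libraries printed for those whose groups did not overlap or that led their family; for other pathway genes up to 2 of smallest p are named, and Cd63, Reck and Adam33 are named after their values were seen. Alternatives were other pseudocounts (0.1 and 5), filters, scalings, library weights, the replicate number as a block, a loess trend with length and GC removed, and leaving out libraries. Protein motifs were not searched.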

Additional observations from a re-analysis of the deposited data

How the results depend on the processing

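TPM gives no depth. In every setting run except library weights (7 called) and without control 1 (17 called), 0 members were called, and the setting without controls 2 and 3 has 1 control and no spread of its own in that group. Without 1 library each, the called members ranged from 0 to 17. Members with groups apart ranged from 9 to 28, against 8 with all libraries (17.2% of all genes): the 28 were without control 1 (68.3% of members and 60.5% of all genes), and the other libraries left 9 or 10 (22.0 to 24.4% of members, 21.9 to 26.0% of all genes). Of 41 members 13 kept their sign in every setting and 28 did not. Replicate numbers were not shown to pair the libraries (correlations 0.122, -0.011 and 0.077), and with the replicate block 0 members were called and the median was 0.08, with 12 of all genes called against 21. The trendless eBayes called 1 gene, no filter 16, a pseudocount of 0.1 16, median-of-ratios scaling 5, the trend removal 43, and leaving out any library but control 1 between 0 and 10. Without controls 2 and 3, 33 members had groups apart (80.5%; 64.6% of all genes) and the median was -0.17 (all genes -0.08), and with quantile normalization 13 had groups apart (31.7%; 20.3% of all genes). Under median-of-ratios scaling the summed difference was -194 TPM for MMP and -1544 TPM for TIMP genes (-97.6 and -1168 unscaled). Unscaled and without the most abundant member, the difference was 23.3, 19.2 and -0.567 TPM for MMP, TIMP and ADAMTSL genes. Log2 fold changes that changed sign were, with quantile normalization, Adam11 -0.03, Adam15 0.02, Adamts3 -0.05, Adamts5 -0.07, Mmp10 -0.09, Mmp11 -0.05, Mmp17 -0.01 and Mmp27 -0.11. With library weights they were Adam15 0.00, Adamts14 0.06 and Adamtsl1 0.01. With median-of-ratios scaling they were Adamts5 -0.02, Mmp10 -0.07, Mmp11 -0.07, Mmp12 -0.01, Mmp27 -0.05 and Timp3 -0.08. With the length and GC trend removed they were Adam11 -0.12, Adam19 -0.14, Adamts12 -0.06, Adamts3 -0.04, Adamts5 -0.23, Adamts6 -0.01, Adamts7 -0.12, Mmp11 -0.01, Mmp12 -0.07, Mmp17 -0.16, Timp2 -0.02 and Timp3 -0.14. Without controls 2 and 3 they were Adam10 -0.11, Adam11 -0.23, Adam12 -0.33, Adam17 -0.18, Adam19 -0.45, Adam9 -0.12, Adamts1 -0.15, Adamts12 -0.43, Adamts4 -0.57, Adamts5 -0.19, Adamts7 -0.06, Adamts9 -0.13, Mmp10 -0.09, Mmp11 -0.15, Mmp12 -0.02, Mmp16 -0.22, Mmp17 -0.17, Mmp19 -0.19, Mmp27 -0.10, Mmp28 -0.20, Mmp8 -0.03 and Timp3 -0.32. Leaving out 1 library at a time gave ranges across 0 for Adam11 (-0.09 to 0.24), Adam15 (-0.08 to 0.04), Adam19 (-0.09 to 0.34), Adamts14 (-0.28 to 0.14), Adamts3 (-0.18 to 0.26), Adamts4 (-0.06 to 0.52), Adamts5 (-0.04 to 0.16), Adamts6 (-0.11 to 0.48), Adamtsl1 (-0.11 to 0.01), Mmp10 (-0.05 to 0.05), Mmp11 (-0.07 to 0.09), Mmp12 (-0.00 to 0.11), Mmp19 (-0.01 to 0.26), Mmp27 (-0.06 to 0.09) and Timp3 (-0.09 to 0.16). The causes were not tested.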
